A study of Macaca mulatta and Mus musculus and Rattus norvegicus with 12 samples.

Results

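The tibia transcriptome was compared across mouse, rat and rhesus macaque in the 6 tibia libraries among the 12 RNA-seq libraries of the series. The comparison was made over the 9767 gene symbols that the tables of all 3 species held, out of 38599 symbols in the mouse table, 35259 in the rat table and 28641 in the macaque table. Symbols were matched as printed, in upper case, and expression was compared as rank within each library. Levels were not tested between species, because sequencing lane and gene annotation changed with species: the rodent libraries ran in lane 3 and the macaque libraries in lane 4. The question was which genes take the top and bottom ranks of limb bone in all 3 species, and where skull bone (calvaria) of the same species differs from it.

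Mouse tibia was represented by libraries M5 and M7, each pooled from 3 female C57BL6 mice of 4 months. Rat tibia was represented by the single library R3, pooled from 2 female Wistar rats of 6 months. Libraries G2, G4 and T2 came from individual female macaques, whose age is given as 4-6 month in the sample labels and as 4 to 6 years in the methods of the study. The matching calvaria libraries were M4 and M8 in mouse, R1 in rat and G1, G3 and T1 in macaque. The labels give no treatment. All libraries are labelled osteocyte, but none was sorted: rodent tibias were cut at the metaphysis and spun to remove marrow, macaque tibia was sampled with a saline-cooled saw, and in all species the periosteum was stripped, the surfaces were scraped and digested briefly with collagenase, and the bone was milled frozen. Rodent calvaria was cut with scissors, leaving out sutures and marrow spaces, and no spin is described for it, so preparation changed with site. No source used here says whether the mouse pools were prepared separately, so p-values measure the spread between these libraries.

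Osteocytes are former osteoblasts that have been buried in the matrix they made, and they make up most cells of mineralized bone. They are joined to each other by connexin channels in a canaliculi network, sense mechanical load, secrete the Wnt inhibitors sclerostin and Dickkopf, and control phosphate and mineral through MEPE, DMP1 and PHEX. The tibia is a limb bone laid down on a cartilage template, whereas the calvaria forms directly within a membrane, and limb bones keep a positional code of HOX and T-box factors. Bone also holds marrow, vessels and fat, and attached tendon and muscle, so a bone library is a mixture. In such bulk samples, fewer cells of a type and less RNA per cell cannot be told apart.

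The tibia libraries held between 7951585 and 16826535 reads on genes, and the calvaria libraries between 8362272 and 15573952. The shared symbols took 48.6 to 61.7% of the reads of a tibia library, and between 1326 and 2514 of them were at 0 there. All 6 tibia libraries had a read for 6312 shared symbols and at least 10 reads for 5220, and 631 were at 0 in all 6. The 10 most abundant symbols of a tibia library, shared or not, took 12.3 to 23.5% of its reads. A 0 in 1 species could not be read as absence, because genes that every cell uses were also at or near 0: ACTB, the cytoplasmic beta actin, had 98655 and 78737 reads in mouse tibia but 0, 0 and 1 in macaque, and COL1A2, a chain of type I collagen, was listed at 0 in rat.

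Tibia ranks were closest between the rodents. Spearman's rho over the 9767 shared symbols was 0.803 to 0.805 between rat and the mouse libraries, 0.662 to 0.692 between mouse and macaque and 0.636 to 0.659 between rat and macaque. Within species it was 0.989 between the mouse libraries and 0.964 to 0.975 among the macaque libraries. These are correlations across genes, which are not independent replicates, and the libraries of a species share their annotation and lane. Calvaria gave the same order, with medians of 0.805 for mouse and rat, 0.694 for mouse and macaque and 0.668 for rat and macaque. Among the 5220 symbols with at least 10 reads in every tibia library the medians were lower, at 0.726, 0.534 and 0.526. G4 had the lowest and T2 the highest rank agreement with the rodents of the 3 macaque libraries.

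**Figure D1:**
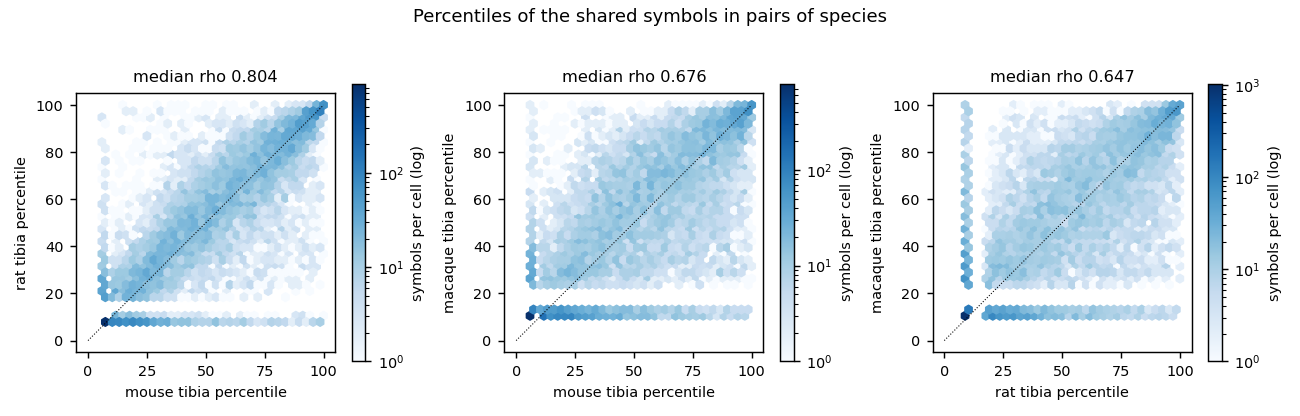
Percentile rank of the shared symbols within tibia for each pair of species (the median over the libraries of a species, 0 to 100 on both axes), with darker cells holding more symbols on a log scale. The cells lie closest to the dotted diagonal for mouse and rat (median rho 0.804), and the bands along the lower and left edges are symbols at or near 0 reads in 1 species.

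In all 3 species, 141 symbols were in the top 5% of tibia, out of 489 each in mouse and rat and 492 in macaque, and 120 of the 141 were also in the top 5% of calvaria in all 3. The rodents shared 282 of their top symbols (57.7% of each list), mouse and macaque 203 (41.5% of the mouse and 41.3% of the macaque list) and rat and macaque 213 (43.6% of the rat and 43.3% of the macaque list). At the edge of this set, IRX5, an Iroquois homeobox factor, was the last symbol inside and TGFBR2, a receptor of TGF-beta, the first outside. Narrowing the set to the top 1% left 28 symbols and widening it to the top 10% gave 351.

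The 15 symbols with the highest rank in whichever species ranked them lowest were S100A8, CAMP, B2M, S100A6, COL1A1, RPS3, SEPP1, MEPE, ARPC3, MGP, SHFM1, CD74, SPP1, PFDN5 and VIM. S100A8 encodes a subunit of the neutrophil protein calprotectin and CAMP the antimicrobial peptide cathelicidin, and B2M is the light chain of class I major histocompatibility molecules. S100A8 had 283656 and 308583 reads in M5 and M7, 79476 in R3 and 27896, 25051 and 56955 in G2, G4 and T2. CAMP had 59886 and 55494 reads in mouse, 30832 in rat and 31742, 32597 and 76478 in macaque tibia. B2M was more even, with 40630 and 35558 in mouse, 44965 in rat and 60696, 54396 and 82356 reads in macaque.

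The bone members of this set were COL1A1, SPP1, MEPE and MGP. SPP1 encodes osteopontin, an acidic phosphoprotein of bone matrix, and had 29187 and 25488 reads in mouse, 27312 in rat and 7003, 6204 and 27070 in macaque tibia. It ranked at 99.8 and 99.8 in mouse, 99.9 in rat and 99.4, 99.4 and 99.8 in macaque. SEPP1, the plasma selenium carrier selenoprotein P, had 21055 and 16743 reads in mouse, 21614 in rat and 23851, 24181 and 29752 in macaque. CD74, the invariant chain of class II antigen presentation, had 10167 and 7858 in mouse, 20185 in rat and 8189, 8454 and 10131 reads in macaque. VIM, the intermediate filament vimentin of mesenchymal cells, had 12849 and 9479 in mouse, 13430 in rat and 35438, 32951 and 37892 reads in macaque.

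ARPC3, a subunit of the complex that branches actin filaments, had 7050 and 5382 reads in mouse, 6407 in rat and 4335, 4666 and 6744 in macaque. The other members were the calcium-binding S100A6, the ribosomal RPS3, the proteasome component SHFM1 and the prefoldin PFDN5, and their species ranks lay between 99.4 and 99.9.

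The 10 highest symbols of each species overlapped in only S100A8, CAMP and B2M, out of 19 symbols in any of the lists. Here and below, a level is the read count divided by the deposited covered length and scaled, as in TPM, to a common total over the shared symbols of a library. Mouse tibia was led by S100A9, the partner of S100A8, at levels of 215273 and 218046, and by S100A8 at 146346 and 179923. Next came CAMP, EEF1A1, ACTB, B2M, COL1A1, COL1A2, CST3 and SPARC. Rat tibia was also led by S100A9, at 209005, and S100A8, at 53155, followed by CST3, CAMP, TPT1, MIR451, ITM2B, ATPIF1, B2M and SPP1. Macaque tibia was led by B2M at 33029, 30820 and 33195, S100A8 at 32696, 30571 and 49446 and MEPE at 31747, 31945 and 11379, followed by CAMP, COL1A2, TPT1, BGLAP, RPS21, COL1A1 and RPL23.

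Several of these leaders were lower elsewhere. S100A9 had only 690, 583 and 1714 reads in the macaque tibias, but still ranked at 97.0, 96.3 and 98.8 there. TPT1, the translationally controlled tumour protein of all growing cells, had 236 and 226 reads in mouse against 41202 in rat and 36005, 36573 and 50065 in macaque. CST3, the secreted protease inhibitor cystatin C, had 30086 and 23486 reads in mouse and 44251 in rat, and 92, 10 and 1224 in G2, G4 and T2, so that it also varied widely within macaque. MIR451 is a short gene of a red cell microRNA, and its 2932 reads ranked high in R3 on the per-length scale. The libraries were poly(A)-selected, so these reads do not measure the mature microRNA.

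**Figure D2:**
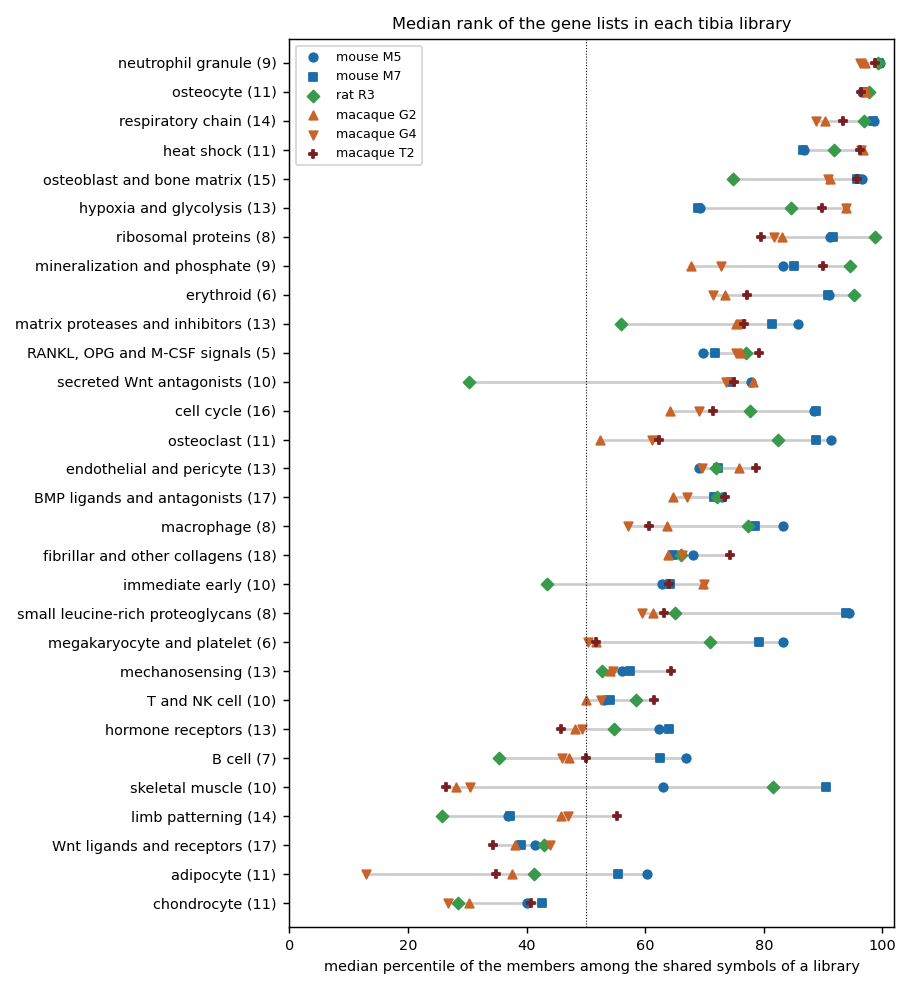
Median percentile rank (horizontal, 0 to 100) of the shared members of each gene list (rows, number of members in brackets), 1 point per tibia library, with grey lines from the lowest to the highest library. The osteocyte and neutrophil granule lists lie above 96 in every library, and skeletal muscle spreads from 26.4 in T2 to 90.5 in M7.

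Tibia was next set against calvaria within each species, with a symbol called where the false discovery rate was under 0.2 and the fold change over 1.1, the thresholds of the study. In the text that follows, differences are log2 of tibia over calvaria. In mouse, the quasi-likelihood test of edgeR (Benjamini-Hochberg adjusted) called 510 of 22339 symbols tested (2.28%; 1.57% higher in tibia and 0.712% in calvaria), and 252 of the 8886 shared symbols tested (2.84%): 2.16% higher in tibia and 0.675% higher in calvaria. In macaque it called 3724 of 18894 (19.7%; 9.43% higher in tibia and 10.3% in calvaria), and 2022 of the 8348 shared symbols tested (24.2%), 12.1% in each direction. The median difference over the shared symbols was -0.04 in mouse and 0.01 in macaque. The mouse calls rest on few libraries and on which low symbols enter the fit: 29 were called after edgeR's filter on low counts, 220 without M5, 312 without M7, 3816 without M8 and 7470 without M4. In macaque, leaving out 1 library gave 2301 calls without G3 to 4998 without T2. Scaling macaque by library size alone moved its median over all symbols from -0.03 to 0.18 and gave 4499 calls, 69.3% of them higher in tibia against 47.8% with the scaling used here, so differences are relative to that scaling.

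Rat had 1 library per site and no test, so its ratio has no replicate check. With 1 read added, 7.58% of the 8283 shared symbols with reads in rat had a log2 ratio over 2 and 1.07% one under -2, and the median was 0.30. All ratios of rat below are on this scale. Marrow signal moved with site: the 9 neutrophil granule genes took 23.6, 29.8 and 31.9% of the summed level of shared symbols in macaque calvaria against 6.14, 6.08 and 9.98% in tibia, 50.3 and 57.7% against 39 and 42.7% in mouse and 45.4% against 28.4% in rat. Its part in the differences of other genes was not tested. In the rodents only tibia is described as spun to remove marrow, so site and preparation cannot be told apart.

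Of the 318 shared genes in 30 lists of bone, marrow and tissue genes, mouse called 45 of the 317 tested (14.2%; 40 higher in tibia and 5 higher in calvaria) and macaque 128 of the 298 tested (43.0%; 59 and 69). The counts of each list below stand beside the shares over all shared symbols. These were 2.16% higher in tibia and 0.675% higher in calvaria in mouse, and 12.1% each way in macaque. Both called 25, of which 19 were higher in tibia in both, 3 higher in calvaria in both and 3 opposite. Leaving out each library in turn kept 21 of the 45 mouse calls and 92 of the 128 macaque calls. Of the 45 mouse calls, 14 were kept in a fit over shared symbols alone, 5 with edgeR's filter on low counts and 3 with a read in every library, where symbols that were not tested count as not kept. FRZB, HOXA7 and NDRG1 were kept in every setting. HOXC10 had no read in mouse calvaria, so it was not tested with a read in every library, and no setting that tested it lost its call. The other mouse calls of list members depend on which symbols enter the fit.

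**Figure D3:**
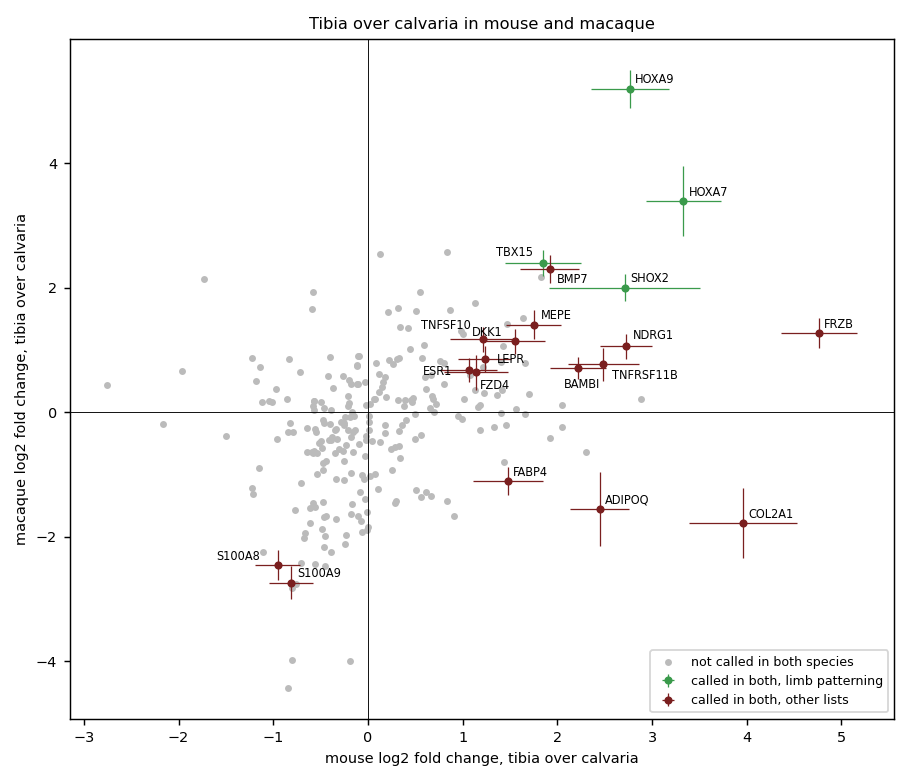
Log2 difference of tibia over calvaria in mouse (horizontal) and macaque (vertical) for the 260 list members with over 3 reads in some library of each site in both species. Of the 20 that both species called, drawn in colour with bars of 1 SE, 15 lie above 0 on both axes, 2 below 0 on both, and COL2A1, ADIPOQ and FABP4 lie above 0 in mouse and below it in macaque.

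Osteocyte genes ranked among the highest of all lists in every tibia library. The median percentile rank of the 11 shared members was 96.5 and 97.2 in M5 and M7, 97.8 in R3 and 97.2, 96.9 and 96.4 in G2, G4 and T2. Mouse called 5 of the 11 higher in tibia and none in calvaria, against 2.16% of all shared symbols, and macaque called 4 higher and 1 lower. The median difference of the list was 0.60 in mouse and 0.29 in macaque. In rat, 6 of the 9 members with reads had a ratio over 2.

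MEPE, the matrix phosphoglycoprotein of osteocytes, had the highest level of the list in macaque tibia and the highest after MGP in the rodents. Its tibia reads were 12459 and 14342 in mouse, 45587 in rat and 151125, 146051 and 73130 in macaque, against 4654 and 2661 in mouse, 3641 in rat and 44294, 36748 and 43767 in macaque calvaria. No tibia library overlapped a calvaria library of its species, and T2 was the macaque tibia closest to calvaria. The difference was 1.75 ± 0.29 (SE, edgeR adjusted p = 0.00791) in mouse and 1.40 ± 0.23 (SE, edgeR adjusted p = 2.38e-05) in macaque, and the rat ratio was 3.87. The mouse call was lost without M7 (edgeR adjusted p = 0.217 without M7).

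DMP1, an acidic protein needed for the mineral around osteocytes, differed in the rodents. Mouse tibia had 14252 and 12296 reads against 2192 and 1079 in calvaria, a difference of 2.89 ± 0.31 (SE, edgeR adjusted p = 0.000243), and R3 had 34033 against 2243 in R1, a ratio of 4.14. In macaque the reads were 1744, 2044 and 1487 in tibia and 1189, 1399 and 1430 in calvaria, and the difference of 0.21 was not called (edgeR adjusted p = 0.573). PHEX, the endopeptidase lost in X-linked hypophosphataemia, was also called in mouse and not in macaque, and the difference between the species was not tested. It had 2055 and 1919 reads against 853 and 468 in mouse, a difference of 1.45 ± 0.28 (SE, edgeR adjusted p = 0.0249) that was lost without M5 or without M7 (edgeR adjusted p = 0.349 without M7), and 7410 against 1112 in rat. PHEX ranked at 97.8 in R3, 83.3 and 85.1 in mouse and only 65.8, 66.3 and 69.3 in macaque tibia.

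DKK1, a secreted Dickkopf inhibitor of Wnt signalling, was called in both tested species. Its reads were 2872 and 3261 in mouse tibia against 1317 and 617 in calvaria, a difference of 1.55 ± 0.31 (SE, edgeR adjusted p = 0.0333) that was lost without M7 (edgeR adjusted p = 0.453 without M7). Macaque tibia had 2576, 2376 and 2290 against 1284, 1000 and 600, a difference of 1.13 ± 0.21 (SE, edgeR adjusted p = 0.000121). No tibia library overlapped calvaria in either species, and rat listed DKK1 at 0 in both libraries.

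The other osteocyte members were mixed. CD44, a hyaluronan receptor of osteocytes, had 4790, 4478 and 3272 reads in macaque tibia against 1844, 1630 and 1987, a difference of 1.02 ± 0.19 (SE, edgeR adjusted p = 0.0002), and 19359 against 3383 in rat. MGP, the matrix Gla protein that inhibits calcification, ranked at 99.8 and 99.9 in mouse, 99.9 in rat and 99.5, 99.4 and 99.5 in macaque across the libraries. It was called higher in macaque tibia at 0.56 ± 0.18 (SE, edgeR adjusted p = 0.0419), a call lost without G1 (edgeR adjusted p = 0.233 without G1). IRX5 had 3416 and 4574 reads in mouse tibia against 1804 and 527, a difference of 1.70 ± 0.41 (SE, edgeR adjusted p = 0.0816) that was lost without M7 (edgeR adjusted p = 0.451 without M7), and the rat ratio was 3.81. CAPG, an actin-capping protein, went the other way in macaque, with 623, 357 and 1168 reads against 991, 1086 and 1500 and a difference of -0.98 ± 0.23 (SE, edgeR adjusted p = 0.00334). PTH1R, the parathyroid hormone receptor, ranked at 96.5 and 94.4 in mouse, 88 in rat and 97.4, 97.1 and 98 in macaque tibia and was not called in either species. KERA, keratocan, and FBLN7, a fibulin, were at or near 0 in rat and macaque, with at most 4 reads in any of those 4 libraries.

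SOST, which encodes the osteocyte product sclerostin, was not among the shared symbols, because the macaque table lists it only as a numbered locus described as sclerostin-like. Naming such loci by their NCBI gene number in RefSeq gave it 104874 and 121845 reads in mouse tibia against 20281 and 9181 in calvaria, 15 against 5 in rat, and 5062, 5152 and 5037 against 1717, 726 and 2203 in macaque. Every tibia library of mouse and macaque was above the calvaria libraries of its species. The study reports a higher average expression of SOST than of MEPE in macaque. The macaque locus here had far fewer tibia reads than the 151125, 146051 and 73130 of MEPE. Whether other rows hold macaque SOST reads was not tested. The rat count of 15 reads stood beside 34033 for DMP1 in the same library, and the rat table gives SOST a covered length of 669 bases against 2187 in mouse.

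**Figure D4:**
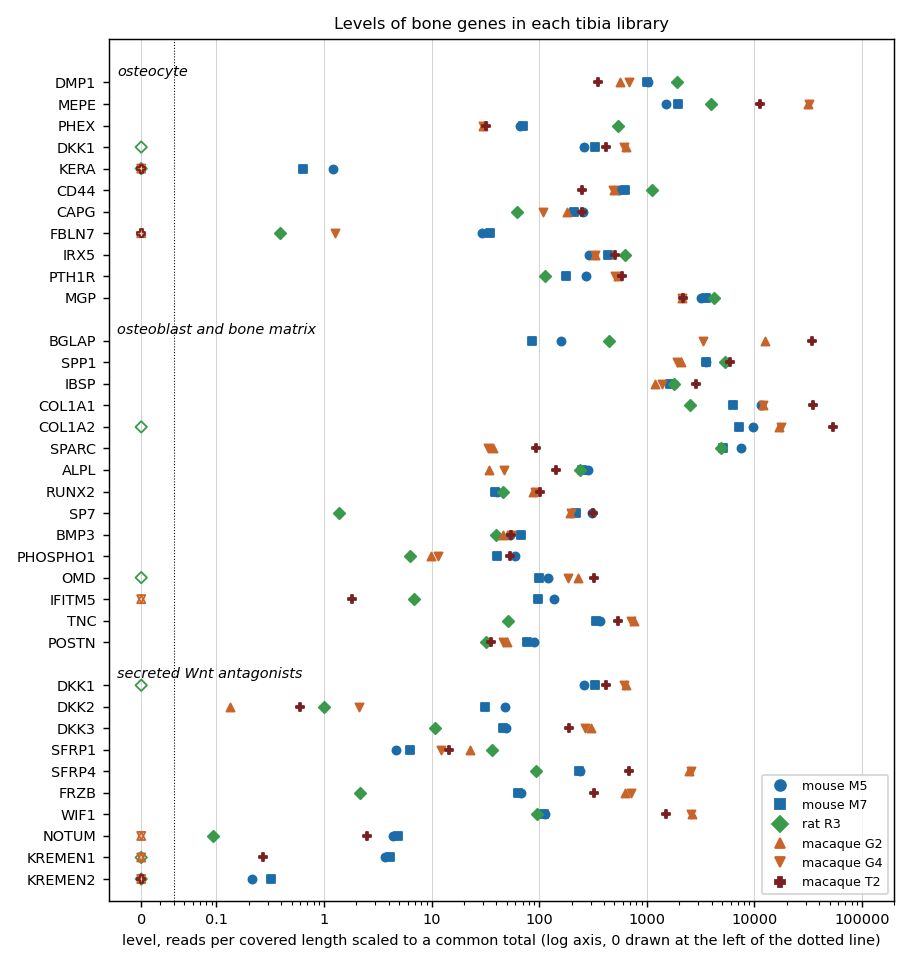
Levels (reads per covered length scaled to a common total, log axis) of osteocyte, osteoblast and secreted Wnt antagonist genes, 1 point per tibia library, with open points left of the dotted line listed at 0. For MEPE the 3 macaque libraries lie right of the rodents, for BGLAP the macaque points are spread widely with T2 highest, and for SPARC they lie left of the rodents.

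The 15 shared osteoblast and bone matrix genes had a median rank of 96.6 and 95.7 in mouse, 74.7 in rat and 91.2, 90.9 and 95.8 in macaque. Mouse called none of the 15 and macaque 3 (against 12.1% of all shared symbols), all higher in tibia, and the median difference was -0.02 in mouse and 0.09 in macaque. COL1A1, the main collagen chain of bone, had 268926 and 129676 reads in mouse, 48038 in rat and 144541, 138757 and 571938 in macaque tibia. IBSP, bone sialoprotein, had 17390 and 14100 in mouse, 11250 in rat and 3924, 4317 and 12691 reads in macaque. For both genes M5 was above M7 and T2 was far above G2 and G4.

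BGLAP, or osteocalcin, had the widest spread of level within mouse and within macaque among the matrix genes with reads in every tibia library of the species. It had 541 and 257 reads in mouse, 5211 in rat and 7797, 1967 and 28906 in macaque tibia, and ranked at 93.4 and 87.9 in mouse against 99.9, 99.7 and 99.96 in macaque. ALPL, the tissue non-specific alkaline phosphatase that clears the mineral inhibitor pyrophosphate, had 5072 and 3951 in mouse, 2237 in rat and 171, 225 and 966 reads in macaque. PHOSPHO1, the phosphatase that starts mineral inside matrix vesicles, had 557 and 342 in mouse, 57 in rat and 43, 48 and 310 in macaque. In macaque, T2 was the highest for all 3 of these genes.

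Transcription factors of the osteoblast were found in all species. RUNX2, the master factor of the lineage, had 2468 and 2090 in mouse, 916 in rat and 1083, 1072 and 1671 reads in macaque. Macaque called RUNX2 at 0.48 ± 0.19 (SE, edgeR adjusted p = 0.11) and SP7, or osterix, at 0.77 ± 0.21 (SE, edgeR adjusted p = 0.0115), but RUNX2 lost the call without T2 or without G3, with its highest edgeR adjusted p = 0.409 without G3, and SP7 lost it without G3 (edgeR adjusted p = 0.204 without G3). SP7 had 5420 and 3394 reads in mouse tibia and only 11 in rat. POSTN, the matricellular protein periostin of periosteum, was the third macaque call, with 345, 306 and 337 reads in tibia against 66, 81 and 47 in calvaria and a difference of 2.14 ± 0.27 (SE, edgeR adjusted p = 1.35e-07). OMD, osteomodulin, was listed at 0 in rat and had 2282 and 1674 and 767, 607 and 1467 reads in mouse and macaque. IFITM5, a membrane protein of mineralizing osteoblasts, had 478 and 304 reads in mouse, 107 in rat and 0, 0 and 2 in macaque.

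Of 9 genes of mineralization and phosphate, 6 of which are in the lists above (MEPE, PHEX, DMP1, MGP, ALPL and PHOSPHO1), mouse and macaque each called 3 higher in tibia and none lower. ENPP1, which makes pyrophosphate, had 2382, 2262 and 1973 reads in macaque tibia against 1457, 785 and 938 in calvaria, a difference of 0.87 ± 0.20 (SE, edgeR adjusted p = 0.00224), and ranked at 76.2 and 81.3 in mouse, 86.4 in rat and 95.1, 95 and 93 in macaque. SLC20A2, a phosphate transporter, ranked at 59.5 and 58 in mouse, 43.4 in rat and 61, 62.1 and 63 in macaque. AHSG, the liver protein fetuin-A that binds mineral in blood, had at most 6 reads in any tibia library.

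The collagen list did not separate the species, with median ranks of 68.1 and 64.6 in mouse, 66.1 in rat and 63.8, 66.1 and 74.2 in macaque. Within it, COL2A1 was far higher in mouse tibia than in the others. Of the 18 shared collagens, mouse called 1 higher in tibia and 1 higher in calvaria, and macaque 2 and 1. For macaque, the share over all shared symbols was 12.1% in each direction. COL2A1, the collagen of cartilage, had 10478 and 6963 reads in mouse tibia, 41 in rat and 9, 2 and 46 in macaque, and calvaria had 909 and 137 in mouse, 0 in rat and 43, 41 and 80 in macaque. The difference was 3.96 ± 0.57 (SE, edgeR adjusted p = 0.00272) in mouse and -1.78 ± 0.56 (SE, edgeR adjusted p = 0.0313) in macaque, where the call was lost without G3 (edgeR adjusted p = 0.239 without G3). COL3A1, the fibrillar collagen of soft connective tissue, was lower in mouse tibia, with 1414 and 934 reads against 13101 and 1734 and a difference of -2.75 ± 0.58 (SE, edgeR adjusted p = 0.0401). M4 held most of those calvaria reads. In macaque, COL4A2 of basement membranes was called at 0.46 ± 0.19 (SE, edgeR adjusted p = 0.142) and COL15A1 of vessel walls at 0.59 ± 0.26 (SE, edgeR adjusted p = 0.158), which had 248, 193 and 514 reads in tibia and was listed at 0 in rat. Both calls were lost when 1 library was left out, with highest edgeR adjusted p values of 0.47 without G3 and 0.737 without T2.

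Small proteoglycans of the matrix were also uneven between species, and of 8 tested mouse called 1 and macaque 2 higher in tibia and none lower. The shares over all shared symbols were 2.16% in mouse and 12.1% in macaque. Decorin, or DCN, which binds collagen fibrils, had 61231 and 45083 reads in mouse, 1373 in rat and 6102, 5403 and 14143 in macaque, and was called higher in mouse tibia at 1.41 ± 0.36 (SE, edgeR adjusted p = 0.1), a call lost without M5 (edgeR adjusted p = 0.49 without M5). Biglycan, or BGN, had 19168 and 16435 and 1303 reads in mouse and rat but 3, 1 and 8 in macaque. LUM, lumican, ranked at 93.2 and 93.9 in mouse, 97.1 in rat and 97.8, 97.4 and 97.8 in macaque. FMOD, fibromodulin of tendon and bone, was called in macaque at 1.93 ± 0.36 (SE, edgeR adjusted p = 0.000153), with 115, 116 and 121 reads against 22, 29 and 29, and PRELP, a basement membrane anchor, at 1.74 ± 0.38 (SE, edgeR adjusted p = 0.00141), with 104, 68 and 159 against 31, 35 and 18. OGN, osteoglycin, had 3210 and 2817 reads in mouse, 46, 65 and 19 in macaque and 0 in rat.

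Secreted Wnt antagonists were higher in tibia wherever they were called. Mouse called 2 of 10 and macaque 5 of 9 tested higher in tibia and neither called any lower, with median differences of 0.87 and 0.82. The shares over all shared symbols were 2.16 and 12.1%. FRZB, a secreted Frizzled-related protein, had 982 and 809 reads in mouse tibia against 45 and 15, a difference of 4.76 ± 0.40 (SE, edgeR adjusted p = 2.94e-05), which was the widest of the group. In macaque it had 3147, 3441 and 2191 against 799, 684 and 1760, a difference of 1.26 ± 0.24 (SE, edgeR adjusted p = 0.000225), and the scaled values of the sites overlapped. Rat had 23 reads against 6.

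SFRP4, another Frizzled-related antagonist, was high in macaque tibia, at 8668, 8726 and 3302 reads against 3122, 3080 and 1312 in calvaria and a difference of 1.30 ± 0.27 (SE, edgeR adjusted p = 0.000881), although the scaled values of the sites overlapped. WIF1, which binds Wnt ligands directly, ranked at 90.2 and 90.7 in mouse, 86.2 in rat and 99.6, 99.6 and 99.3 in macaque. Its macaque difference was 0.59 ± 0.19 (SE, edgeR adjusted p = 0.0395) and was lost without G2 or without T1 (edgeR adjusted p = 0.231 without T1). DKK3 had 1802, 1526 and 1524 reads in macaque tibia against 870, 789 and 666, a difference of 0.87 ± 0.19 (SE, edgeR adjusted p = 0.00099). SFRP1 ranked highest in R3, at 70.3, against 36.3 and 40.8 in mouse. KREMEN2 and NOTUM, at 62 reads or fewer in each tibia library, were near the floor. The rat median of the list was 30.3, against 77.9 and 74.4 in mouse and 78.1, 73.6 and 75 in macaque.

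Wnt ligands and receptors were low in all tibias, with list medians of 41.5 and 39 in mouse, 43 in rat and 38, 44 and 34.4 in macaque. Macaque called 5 of 13 tested higher in tibia and mouse 1 of 17, but the mouse call and 4 of the macaque calls were lost when 1 library was left out. FZD7, a Frizzled receptor, kept its call and had 502, 562 and 260 reads in macaque tibia against 208, 128 and 160, a difference of 1.25 ± 0.26 (SE, edgeR adjusted p = 0.000703). LRP4, a co-receptor through which sclerostin acts, was the highest member in macaque and ranked at 67.7 and 66.5 in mouse, 83 in rat and 90.7, 90.3 and 90.8 in macaque. WNT1, a ligand whose loss causes brittle bone, had 10 and 25 in mouse, 88 in rat and 11, 30 and 18 reads in macaque, and its rat ratio was 4.70.

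BMP ligands and antagonists were called only higher in tibia. Of 17 members, mouse called 3 and macaque 8 of 16 higher in tibia, neither called any lower, and 6 of 17 had a rat ratio over 2. The shares over all shared symbols were 2.16% in mouse and 12.1% in macaque. CHRDL1 in mouse and CHRD and FST in macaque lost the call when 1 library was left out. The median difference was 0.61 in mouse and 0.87 in macaque. BMP7, an osteogenic ligand, had 549 and 553 reads against 171 and 95 in mouse, 108 against 5 in rat and 836, 769 and 1029 against 128, 116 and 219 in macaque. The tibia and calvaria libraries did not overlap, and the difference was 1.92 ± 0.31 (SE, edgeR adjusted p = 0.0073) in mouse and 2.30 ± 0.22 (SE, edgeR adjusted p = 7.3e-10) in macaque. BAMBI, a decoy receptor of the pathway, had 1672 and 1852 against 438 and 254 reads in mouse and 7437, 7336 and 6975 against 4252, 3806 and 3596 in macaque, differences of 2.22 ± 0.30 (SE, edgeR adjusted p = 0.00151) and 0.71 ± 0.18 (SE, edgeR adjusted p = 0.00639), and its rat ratio was 3.62.

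Among the other ligands, BMP4 was called in macaque at 1.62 ± 0.23 (SE, edgeR adjusted p = 2.47e-06) and BMP5 at 1.41 ± 0.26 (SE, edgeR adjusted p = 0.000127). Noggin, or NOG, which sequesters BMPs, had 1187, 1171 and 3931 reads in macaque tibia against 431, 480 and 764, a difference of 1.66 ± 0.27 (SE, edgeR adjusted p = 1.67e-05). The NOG level in T2 was 2.42 times the mean of G2 and G4. GDF10, a divergent member of the BMP family, had 4501 and 3857 reads in mouse and 910 in rat tibia but 2, 0 and 0 in macaque. BMP2 had 830 and 712 reads in mouse, 1656 in rat and 2254, 2256 and 3080 in macaque tibia and was not called.

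Signals to the osteoclast were called only higher in tibia, 2 of 5 in mouse and 3 of 4 tested in macaque, against 2.16 and 12.1% of all shared symbols. TNFRSF11B, the decoy receptor osteoprotegerin that blocks RANKL, had 446 and 410 reads in mouse tibia against 100 and 40, a difference of 2.49 ± 0.38 (SE, edgeR adjusted p = 0.00403), and 478 against 57 in rat. In macaque its difference of 0.77 ± 0.26 (SE, edgeR adjusted p = 0.0541) was lost without G1 or without G3 (edgeR adjusted p = 0.353 without G3), and the libraries overlapped. TNFSF11, or RANKL itself, had 273, 262 and 363 reads in macaque tibia against 65, 30 and 36, a difference of 2.57 ± 0.29 (SE, edgeR adjusted p = 2.32e-08). It had 35 and 60 in mouse tibia and was listed at 0 in rat. TNFSF10, the death ligand TRAIL, which osteoprotegerin also binds, was called in macaque at 1.17 ± 0.20 (SE, edgeR adjusted p = 3.31e-05). The mouse call of TNFSF10 was lost without M5 or without M7. CSF1, the macrophage growth factor, had 2453 and 2173 reads in mouse, 1887 in rat and 0 in all macaque libraries.

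None of the osteoclast genes was called higher in tibia. Over all shared symbols, macaque called 12.1% in each direction. Mouse called none of the 11 members, and macaque called 3 lower in tibia, ACP5, CTSK and MMP9, all of which lost the call when 1 library was left out (highest edgeR adjusted p = 0.466 without G3, 0.982 without G1 and 0.433 without G3). ACP5, the tartrate-resistant acid phosphatase, had 13036 and 10399 reads in mouse, 11860 in rat and 1044, 813 and 3044 in macaque tibia. MMP9, the gelatinase of osteoclasts and neutrophils, had 22433 and 17016 in mouse, 4973 in rat and 4908, 2759 and 12899 in macaque, so that T2 was above G2 and G4 for both. CTSK, cathepsin K, the main collagen-cleaving protease of osteoclasts, ranked at 98.7 and 98.2 in mouse and 99.3 in rat but had only 30, 42 and 58 reads in macaque.

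Limb patterning factors had the largest median difference of the 30 lists in mouse and in macaque. Mouse called 10 of 13 tested and macaque 11 of 13 higher in tibia, neither called any lower, and 9 of 11 in rat had a ratio over 2. The median difference of the list was 3.94 in mouse, 3.88 in macaque and 4.61 as the rat ratio, against -0.04, 0.01 and 0.30 over all shared symbols. With members at 0 in every calvaria library set to a floor of 3 reads over the group, the medians were 3.54 in mouse and 3.04 in macaque. HOXC10, a hindlimb HOX factor, had 272 and 239 reads in mouse, 107 in rat and 252, 212 and 336 in macaque tibia and 0 in all 6 calvaria libraries (edgeR adjusted p = 1.49e-05 in mouse and edgeR adjusted p = 4.96e-15 in macaque).

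HOXA9 had 391 and 355 reads against 32 and 63 in mouse, a difference of 2.77 ± 0.41 (SE, edgeR adjusted p = 0.00345), and 507, 485 and 488 against 10, 15 and 10 in macaque, a difference of 5.19 ± 0.30 (SE, edgeR adjusted p = 9.49e-16). HOXA7 had 283 and 219 against 23 and 21 in mouse and 59, 43 and 86 against 2, 8 and 5 in macaque, differences of 3.33 ± 0.40 (SE, edgeR adjusted p = 0.000652) and 3.39 ± 0.56 (SE, edgeR adjusted p = 2.24e-05). Rat listed both at 0 in tibia and calvaria. SHOX2, a homeobox factor of limb long bones, had 4290 reads in R3 against 15 in R1, a ratio of 8.29, the highest of the list. In macaque it had 578, 650 and 682 against 152, 122 and 143, with no overlap (edgeR adjusted p = 5.32e-09), and in mouse 4313 and 3872 against 1157 and 46, where M4 was far above M8 (difference 2.71 ± 0.80 (SE, edgeR adjusted p = 0.197)). The mouse call was lost with DESeq2, other scalings and each filter tried. TBX15, a T-box factor of the skeleton, was called in both, at 1.85 ± 0.40 (SE, edgeR adjusted p = 0.0496) in mouse and 2.40 ± 0.21 (SE, edgeR adjusted p = 1.14e-10) in macaque, with 833 and 949 and 1318, 1317 and 894 tibia reads.

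PITX1 and TBX4 are known from the hindlimb and TBX5 from the forelimb. PITX1 had 93 and 59 reads in mouse, 4 in rat and 4, 14 and 2 in macaque tibia and 0 in all calvaria. TBX4 had 59 and 46 in mouse, 5 in rat and 0, 4 and 0 reads in macaque. TBX5 had 0 and 0 reads in mouse tibia and 1 in rat, whereas macaque tibia had 30, 24 and 6 and its calvaria 0 (edgeR adjusted p = 0.00047). T2 was the lowest of the 3 for TBX5 and the highest for HOXD10, which had 56, 55 and 148 reads in macaque tibia, 9 and 8 in mouse and 0 in all calvaria (edgeR adjusted p = 2.11e-09 in macaque). The macaque PITX1 call was lost without G3 or without G4 (edgeR adjusted p = 0.377 without G4). LMX1B, which patterns the dorsal limb, had at most 9 reads.

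MIR10B, the gene of a microRNA that lies in a HOX cluster, had the highest rank gap of any symbol in macaque. It had 764, 703 and 1133 reads in macaque tibia against 118, 70 and 114 in calvaria, a difference of 2.89 ± 0.23 (SE, edgeR adjusted p = 4.79e-12), and was listed at 0 in every rodent library.

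Cartilage genes stood out in mouse tibia. Mouse called 4 of 11 chondrocyte genes higher in tibia, and macaque called 1 higher and 2 lower of 9 tested. Over all shared symbols, mouse called 2.16% higher in tibia and macaque 12.1% each way. The mouse calls of MATN3 and SOX9 were lost without M5 or without M7. Their differences were 6.32 for MATN3 without M5 and 1.37 for SOX9 without M7. COMP, the cartilage oligomeric matrix protein, had 1480 and 1184 reads in mouse tibia against 323 and 85 in calvaria, a difference of 2.60 ± 0.42 (SE, edgeR adjusted p = 0.00633), but 2 in rat and 0 in macaque. CLEC3A, a lectin of cartilage, had 6193 and 5848 reads in mouse tibia against 1 and 0 in calvaria (edgeR adjusted p = 2.09e-08) and 0 in every rat and macaque library. SOX9, the factor that specifies cartilage, had 798 and 740 reads in mouse, 342 in rat and 0, 0 and 1 in macaque tibia. HAPLN1, a link protein of the cartilage matrix, was the macaque gene higher in tibia, at 593, 675 and 304 reads against 132, 109 and 68 and a difference of 2.18 ± 0.28 (SE, edgeR adjusted p = 2.33e-07). SOX6 was lower in macaque tibia, at -0.66 ± 0.19 (SE, edgeR adjusted p = 0.0199), and had 747, 809 and 801 reads there.

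Skeletal muscle genes varied widely between the rodent libraries. Mouse called none of 10. Macaque called 1 of 8 tested higher in tibia, against 12.1% of all shared symbols, and lost it when 1 library was left out. The list median was 62.9 and 90.5 in M5 and M7, 81.6 in R3 and 28.2, 30.5 and 26.4 in macaque, and in calvaria 86.8 and 83.1 in mouse, 28.7 in rat and 24.8, 25 and 24.9 in macaque. MYH2, a fast myosin, had 247 and 2311 reads in M5 and M7, 939 in R3 and 45, 23 and 11 in macaque. ACTA1, skeletal actin, had 1334 and 6093 in mouse, 2588 in rat and 34, 47 and 20 in macaque. In rat, 7 of 10 members had a ratio over 2, with ACTA1 at 2588 against 25 reads and TNNC2, a fast troponin, at 3020 against 18. The part of adhering muscle in other rat differences was not tested.

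Fat genes were called only higher in tibia in mouse and only lower in macaque. Mouse called 5 of 11 higher and macaque 3 of 8 tested lower, against 2.16 and 12.1% of all shared symbols. Several of these calls were lost when 1 library was left out, and no gene kept its call in both species. ADIPOQ, the fat hormone adiponectin, had 1197 and 737 reads in mouse tibia against 203 and 113, a difference of 2.45 ± 0.31 (SE, edgeR adjusted p = 0.00105), and 10, 6 and 18 against 37, 34 and 15 in macaque, a difference of -1.56 ± 0.59 (SE, edgeR adjusted p = 0.0906) on few reads that was lost without any of G1, G2, G3 and G4 (edgeR adjusted p = 0.307 without G1). FABP4, a fatty acid carrier of fat and endothelium, had 17833 and 12957 against 7691 and 2464 in mouse and 6546, 5956 and 14757 against 15715, 20260 and 13834 in macaque, with differences of 1.48 ± 0.37 (SE, edgeR adjusted p = 0.0927) and -1.11 ± 0.22 (SE, edgeR adjusted p = 0.000463). The mouse call was lost without M5 (edgeR adjusted p = 0.437 without M5). CIDEC, a lipid droplet protein, had 123 and 48 reads in mouse tibia against 3 and 0 in calvaria (edgeR adjusted p = 0.00704) and was listed at 0 in macaque tibia. LEP, leptin, was near the floor, at 17 reads or fewer in every tibia library.

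The neutrophil granule list had medians of 99.7 and 99.5 in mouse, 99.3 in rat and 97, 96.3 and 98.8 in macaque. Its 9 members took 39 and 42.7% of the summed level of shared symbols in M5 and M7, 28.4% in R3 and 6.14, 6.08 and 9.98% in G2, G4 and T2. Macaque called 8 of the 9 lower in tibia and mouse 2. S100A8 had 127189, 173904 and 212262 reads in macaque calvaria and 511321 and 515950 in mouse calvaria, and its difference was -2.46 ± 0.24 (SE, edgeR adjusted p = 6.92e-10) in macaque and -0.96 ± 0.24 (SE, edgeR adjusted p = 0.0978) in mouse. The mouse call was lost without M5 or without M7 (edgeR adjusted p = 1 without M5), as was that of S100A9, whose difference was -0.81 ± 0.23 (SE, edgeR adjusted p = 0.18) (edgeR adjusted p = 1 without M7).

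CAMP was also lower in macaque tibia, with 153589, 233280 and 249284 reads in calvaria and a difference of -2.42 ± 0.25 (SE, edgeR adjusted p = 2.13e-09). MPO, myeloperoxidase of neutrophil granules, had 24614 and 16139 reads in mouse, 13847 in rat and 3802, 3506 and 7638 in macaque tibia, and the macaque difference was -1.77 ± 0.22 (SE, edgeR adjusted p = 1.59e-07). LCN2, neutrophil gelatinase-associated lipocalin, had 21711 and 18204 and 7993 reads in the rodents and 138, 85 and 83 in macaque. T2 was above G2 and G4 for S100A8, CAMP and MPO.

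In G2, G4 and T2 the erythroid list had medians of 73.4, 71.5 and 77.1, the B cell list of 47.1, 46 and 50.1 and the megakaryocyte list of 51.8, 50.4 and 51.7. Macaque called 5 of 6 erythroid, 5 of 7 B cell and 3 of 6 megakaryocyte genes lower in tibia and none higher, and mouse called none of these. ALAS2, the first enzyme of heme synthesis in red cells, had 1757, 1476 and 2634 reads in macaque tibia against 6866, 6757 and 8369 in calvaria, a difference of -2.13 ± 0.20 (SE, edgeR adjusted p = 1.95e-10), and 5483 and 5457 and 7949 in mouse and rat tibia. HEMGN, an erythroid nuclear protein, differed by -2.47 ± 0.21 (SE, edgeR adjusted p = 2.35e-11) in macaque. PF4, platelet factor 4, had 16, 28 and 74 reads in macaque tibia against 527, 593 and 1047, a difference of -4.43 ± 0.32 (SE, edgeR adjusted p = 4.87e-13), whereas the rodent tibias had 5149 and 3205 and 4048. VPREB1, a surrogate light chain of B cell precursors, had 3, 1 and 11 against 60, 22 and 125 reads in macaque, a difference of -3.98 ± 0.61 (SE, edgeR adjusted p = 8.39e-06), and 522 and 358 in mouse tibia.

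Mouse called 1 of 10 T and NK cell genes higher in tibia, a call lost when 1 library was left out. Macaque called 3 of 7 T and NK cell genes tested and 1 of 7 macrophage genes lower in tibia, against 12.1% of all shared symbols, among them NKG7, a cytotoxic granule protein, with 151, 93 and 216 reads against 362, 293 and 484 and a difference of -1.53 ± 0.25 (SE, edgeR adjusted p = 2.01e-05). GZMB, granzyme B, ranked at 82.1, 83.3 and 92.5 in macaque and at 28.2 and 33.4 in mouse. C1QA, a complement chain of macrophages, had 743 and 478 in mouse, 1179 in rat and 294, 273 and 588 tibia reads in macaque. Of 13 endothelial and pericyte genes, mouse and macaque each called 2 higher in tibia and none lower, against 2.16 and 12.1% of all shared symbols. The list medians were 69 and 72.2 in mouse, 71.9 in rat and 75.8, 69.5 and 78.7 in macaque. R3, G2 and G4 each had 1 of these genes at 0. PECAM1, an adhesion molecule of endothelium, had 866 and 681 in mouse, 601 in rat and 2760, 2908 and 2390 reads in macaque. Both mouse calls and the macaque call of VWF were lost when 1 library was left out. RGS5, a pericyte signalling regulator, was higher in macaque tibia, with 6525, 6470 and 4692 reads against 1753, 1779 and 1331 and a difference of 1.68 ± 0.20 (SE, edgeR adjusted p = 5.51e-08).

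Proliferation genes were lower in macaque tibia. Macaque called 14 of 16 cell cycle genes lower and none higher, against 12.1% of all shared symbols, with a median difference of -1.59, and mouse called none. MKI67, a nuclear protein of dividing cells, had 1199, 1285 and 1719 reads in macaque tibia against 5272, 4581 and 6559, a difference of -2.17 ± 0.19 (SE, edgeR adjusted p = 8.23e-11), and 8783 and 7439 and 7184 in mouse and rat. TOP2A, the topoisomerase of dividing cells, differed by -1.95 ± 0.19 (SE, edgeR adjusted p = 4.2e-10), with 860, 962 and 1250 against 3246, 3340 and 3680 reads. The marrow lists were lower in the same libraries, and their part in these differences was not tested. The ranks of the list were highest in mouse tibia, at 88.5 and 88.8, and lowest in macaque, at 64.2, 69.1 and 71.4.

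Of 11 heat shock genes, macaque called 6 lower in tibia, against 12.1% of all shared symbols, and none higher, and mouse called none. HSPH1, a large HSP110 chaperone, had 2343, 2207 and 2655 reads in tibia against 17196, 16872 and 10219, a difference of -2.83 ± 0.21 (SE, edgeR adjusted p = 6.18e-13). HSP90AA1, the inducible HSP90, differed by -1.47 ± 0.20 (SE, edgeR adjusted p = 1.33e-06) with 17180, 18244 and 26292 against 50715, 59659 and 36714 reads, and HSPD1, the mitochondrial chaperonin, by -1.76 ± 0.19 (SE, edgeR adjusted p = 1.08e-08). HSP90AB1, the constitutive HSP90, ranked at 99.8, 99.8 and 99.7 in macaque and at 99.5 and 99.4 in mouse and was not called. Of 10 immediate early genes, which respond quickly to stimuli such as handling, macaque called 1 higher and 5 lower in tibia and mouse 1 higher and 2 lower. The macaque share over all shared symbols was 12.1% each way. Leaving out 1 library ended both lower calls in mouse and 3 of the 6 macaque calls, among them the higher one, DUSP1. EGR3 was the mouse gene higher in tibia, at 764 and 933 reads against 280 and 103 and a difference of 2.05 ± 0.37 (SE, edgeR adjusted p = 0.016). ATF3 was lower in macaque tibia, at 103, 48 and 39 against 137, 153 and 172 and -1.46 ± 0.33 (SE, edgeR adjusted p = 0.00187), and MYC at 101, 100 and 84 against 258, 195 and 157 and -1.29 ± 0.27 (SE, edgeR adjusted p = 0.000973).

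Of 13 glycolytic and hypoxia genes, mouse called 2 higher in tibia and none lower, and macaque 2 higher and 5 lower. Over all shared symbols, mouse called 2.16% higher in tibia and macaque 12.1% each way. NDRG1, a stress-response protein that hypoxia induces, was higher in tibia in every species, with 23673 and 26897 reads against 3655 and 3245 in mouse, 18408 against 2106 in rat and 5590, 4814 and 3191 against 1910, 1918 and 1936 in macaque. No tibia library overlapped calvaria in mouse or macaque, and the difference was 2.72 ± 0.27 (SE, edgeR adjusted p = 0.000138) in mouse and 1.06 ± 0.20 (SE, edgeR adjusted p = 0.000209) in macaque. ADM, the vasodilator adrenomedullin, was higher in macaque tibia at 1.52 ± 0.20 (SE, edgeR adjusted p = 3.37e-07), with 869, 1102 and 976 reads against 320, 293 and 288. SLC2A1, the glucose transporter GLUT1, was lower there at -1.35 ± 0.23 (SE, edgeR adjusted p = 5.07e-05), with 254, 227 and 193 against 376, 419 and 717. GAPDH, a glycolytic enzyme and housekeeping control, had 15 and 8 reads in mouse tibia, 356 in rat and 1918, 1186 and 2414 in macaque. The macaque count sums 14 rows of the symbol, against 1 row in mouse and 1 in rat. Whether rows or annotation set these counts was not tested, so they cannot be read as low expression in the rodents.

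Ribosomal and respiratory chain genes ranked high in all tibias. The 14 shared respiratory genes had medians of 98.6 and 98.4 in mouse, 96.9 in rat and 90.4, 88.7 and 93.3 in macaque. Macaque called 2 of the 14 lower in tibia, against 12.1% of all shared symbols. ATP5B, the catalytic beta subunit of ATP synthase, had 18997 and 15858 in mouse, 11095 in rat and 1608, 1409 and 2118 reads in macaque. Only 8 of 36 ribosomal proteins of the list were shared symbols, of which mouse called none and macaque 2 lower in tibia, RPS3 and RPS9, both lost when 1 library was left out. RPS3 had 17902 and 14896 in mouse, 5671 in rat and 7676, 6038 and 9634 reads in macaque, whereas RPS9 had 14618 and 14873 in mouse, 0 in rat and 303, 353 and 423 in macaque.

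Receptors for hormones and load were mid-ranked. Macaque called 5 of 12 hormone receptors tested higher in tibia and mouse 2 of 13, none lower, against 12.1 and 2.16% of all shared symbols. LEPR, the leptin receptor that marks marrow stromal cells, had 545, 420 and 528 reads in macaque tibia against 284, 209 and 229, a difference of 0.85 ± 0.21 (SE, edgeR adjusted p = 0.00486), and ESR1, the oestrogen receptor alpha, had 1015, 822 and 1116 against 647, 434 and 521, a difference of 0.68 ± 0.19 (SE, edgeR adjusted p = 0.0146). The mouse differences were 1.23 ± 0.28 (SE, edgeR adjusted p = 0.0578) and 1.06 ± 0.30 (SE, edgeR adjusted p = 0.157), with 736 and 853 tibia reads of ESR1, and both mouse calls were lost when 1 library was left out (highest edgeR adjusted p = 0.795 without M7 and 1 without M7). NR3C1, the glucocorticoid receptor, was called in macaque at 0.90 ± 0.20 (SE, edgeR adjusted p = 0.00141). VDR, the vitamin D receptor, had 4422 and 3643 reads in mouse tibia but 2 in rat and 15, 0 and 3 in macaque.

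Of 13 genes of the mechanical response, mouse called none and macaque 2 higher and 1 lower in tibia, against 12.1% of all shared symbols each way. Only 1 of these 3 calls was kept without each library in turn. GJA1 encodes connexin 43, the gap junction protein of the osteocyte network, and ranked at 98.4 and 98.6 in mouse, 98.8 in rat and 99.1, 99.1 and 99.6 in macaque. Its macaque difference of 0.80 ± 0.24 (SE, edgeR adjusted p = 0.0251) was lost without G3 or without T2 (edgeR adjusted p = 0.463 without T2), and the libraries overlapped. CTGF, a matricellular target of load signalling, had 7707, 6542 and 4954 reads in macaque tibia against 3812, 2504 and 2981, a difference of 0.87 ± 0.20 (SE, edgeR adjusted p = 0.0024), and 8062 against 1174 in rat. FAP, a surface protease of stromal cells, had 499, 515 and 830 reads in macaque tibia against 90, 83 and 100, a difference of 2.54 ± 0.23 (SE, edgeR adjusted p = 1.58e-10), and ranked at 97.2 and 96.8 in mouse. Of 13 matrix proteases and inhibitors, mouse called none and macaque 2 higher and 2 lower in tibia, against 12.1% of all shared symbols each way. MMP13, the collagenase of osteoblasts and osteocytes, ranked at 99.1 and 99.5 in mouse, 98.3 in rat and 99.3, 99.3 and 99.8 in macaque and was not called.

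Rank gaps between species were mostly the same at both sites. In 318 shared symbols (3.26%), the tibia rank of 1 species lay over 50 percentiles above or below both others. Macaque stood below in 130 and above in 32, rat below in 89 and above in 15, and mouse below in 30 and above in 22. Of the 318, 310 had the same order in calvaria and 207 also differed by over 50 percentiles there, and in 192 (60.4%) the low side had 3 reads or fewer. The 5 widest gaps above in mouse were CLEC3A, COMP, LY6D, PSMB8 and TIMM17B, and below MIR214, C7, ANXA11, PPP1CC and MIR568. In rat they were GNA12, MIR363, ATP6V0C, TREX1 and C6 above, and COL1A2, GNG11, NDUFA1, HNRNPAB and DKK1 below. In macaque they were MIR10B, PNOC, CSTA, CALCOCO2 and GSTM3 above, and CCL5, MYL9, NAPSA, SIRPA and MAEA below. The study reports expression of rat DKK1 at both sites, unlike the rat row used here.

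Many of these are genes that most cells use. PPP1CC, a catalytic subunit of protein phosphatase 1, had 3 and 5 reads in mouse and 1721 in rat and 1878, 1861 and 2226 in macaque tibia. ATP6V0C, a pore subunit of the proton pump, had 18653 in rat and 2 and 0 and 0, 0 and 1 in mouse and macaque. SIRPA, a receptor of myeloid cells, had 4986 and 3310 and 3488 reads in mouse and rat and 0 in macaque. PNOC, the precursor of the neuropeptide nociceptin, had 3088, 3166 and 4175 reads in macaque tibia and 0 in every rodent library. Among tissue genes, CCL5, a chemokine of T cells, had 1144 and 802 reads in mouse tibia against 411 and 208 in calvaria and 1091 against 396 in rat, with 0 in macaque tibia.

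Symbols at 0 in the tibia of 1 species with at least 10 reads in every tibia library of the others numbered 19 in mouse, 181 in rat and 362 in macaque, and 16, 148 and 228 of them were also at 0 in calvaria. In the rat table, symbols with more than 1 row were at 0 in 16 of 62 cases (25.8%) and those with 1 row in 165 of 5516 (2.99%). The corresponding shares in macaque were 2.33% of 215 and 5.54% of 6440. Rat COL1A2 and NDUFA1, a subunit of respiratory complex I, each had 2 rows at 0. Whether rows or annotation set these values was not tested.

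With at least 10 reads in every tibia library, 257 symbols had such a gap, and 253 of them had the same order in calvaria. Among the widest, those above in mouse were EEF1A1, ITGB3, PTPRS, CD36 and SFXN1, and below PEBP1, IMPDH2, RBM3, ATP5G2 and GLTSCR2. In rat ADAM15, NCOA4, EEF1G and ELK4 were above and YBX1, HSPA8, ATP6AP2, MRPL40 and SP7 below. In macaque UHMK1, MIA, CATSPER2, FILIP1 and JAZF1 were above and ZFP36L1, PRKAR1A, SDHD, PTGIS and ZRANB2 below. EEF1A1, the elongation factor of translation, had 158719 and 150384 reads in mouse tibia, 22 in rat and 42, 16 and 34 in macaque. HSPA8, the constitutive HSC70 chaperone, had 5231 and 4508 in mouse, 34 in rat and 24000, 24041 and 28761 in macaque. ITGB3, the osteoclast integrin beta 3, had 3718 and 2394 in mouse, 32 in rat and 35, 25 and 71 in macaque. MIA, a small secreted protein of cartilage, had 442, 534 and 407 reads in macaque tibia against 191, 260 and 161 in calvaria and 12 to 36 in the rodent tibias. NCOA4, the receptor that delivers ferritin to lysosomes, had 10577 in rat, 17 and 20 in mouse and 198, 125 and 200 in macaque.

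The most abundant symbols of each species that were not shared were ribosomal RNA, haemoglobin and numbered loci. In mouse tibia they were RNR2, RN18S-RS5, HBB-BS, MALAT1 and TMSB4X, and RNR2, a mitochondrial ribosomal RNA, had 631371 and 651633 reads. In rat tibia they were RNR2, HBA1, HBA2, RATNP-3B and TMSB4X, and HBA1, an alpha globin, had 301420 reads. In macaque tibia they were 4 numbered loci, led by LOC100429654 with 145478, 139516 and 168918 reads, and HBB, beta globin, with 69471, 57624 and 97385. Of the macaque symbols that were not shared, 17111 of 18874 were numbered loci. Naming by gene number in RefSeq, which gave 5939 of them a symbol, raised the shared symbols to 13982.

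The macaque tibias differed from each other mainly through T2. Percentile ranks of the 5880 symbols with at least 10 reads in the macaque tibias spanned a median of 4.06 percentiles, and T2 lay over 20 percentiles from both others in 14 of them, G4 in 1 and G2 in none. Of the list members with at least 10 reads in each macaque tibia, T2 was below the mean of G2 and G4 in all 6 secreted Wnt antagonists and in 4 of 9 osteocyte genes, and above it in 12 of 14 osteoblast and bone matrix genes, 7 of 7 osteoclast genes and 9 of 15 collagens. The ratio was 0.357 for MEPE, 0.276 for SFRP4, 0.348 for HAPLN1, 0.354 for FZD7 and 0.569 for DMP1. On the high side it was 4.94 for PHOSPHO1, 4.35 for BGLAP, 3.53 for ALPL, 3.09 for COL1A2, 2.93 for COL1A1 and 2.98 for SPP1. The matrix genes below 1 were TNC and POSTN. MMP9 and ACP5 were higher in T2, at 2.46 and 2.39. PHEX, at 1.06, was close to 1. Lists outside bone were also 1-sided. T2 was below in all 8 immediate early genes, 11 of 12 endothelial and pericyte genes and 11 of 13 glycolytic and hypoxia genes. It was also below in 9 of 11 heat shock genes and above in 8 of 9 neutrophil granule genes. T2 is 1 animal, so these ratios have no test.

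The mouse tibias differed mainly in muscle. The 7421 symbols with at least 10 reads in both spanned a median of 1.61 percentiles, and 21 lay over 20 percentiles apart. M7 was above M5 for MYH2 at a ratio of 10.6, ACTA1 at 5.16, CKM, muscle creatine kinase, at 4.84, TNNC2 at 4.66 and MYH4 at 3.34, and below it for BGLAP at 0.537 and COL1A1 at 0.545. For MEPE and DMP1 the ratios were 1.3 and 0.975.

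**Figure D5:**
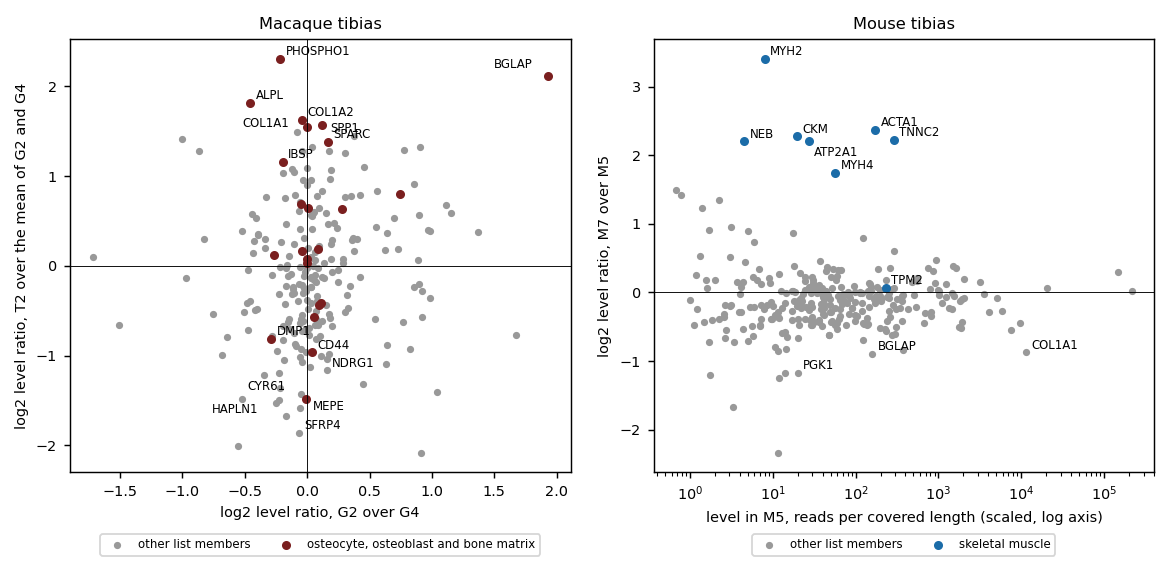
Log2 ratios of levels between tibia libraries for list members with at least 10 reads in each: in macaque T2 over the mean of G2 and G4 (vertical) against G2 over G4 (horizontal), and in mouse M7 over M5 (vertical) against the level in M5 (log axis). In macaque BGLAP, COL1A1 and PHOSPHO1 lie above 0 and MEPE and SFRP4 below, and in mouse the skeletal muscle genes other than TPM2 lie above all other members.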

How the data were processed

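RNA was prepared from frozen, milled tibia and calvaria and sequenced as poly(A)-selected libraries. Per the labels, the authors' deposited tables hold raw read counts per gene for each library, beside a normalized signal and the covered length, and replicates were not pooled. The submitters' processing notes name BWA 0.7.10-r789, HTSeq and edgeR 3.16.5 with mm10 and rn6, whereas the methods name HISAT2 and, for macaque, the MacaM assembly. The deposited signal was used only to check units, and levels were computed from the counts and the covered length, so a wrong length or annotation moves a rank. Rows without a gene held 0.00261 to 0.0663% of reads and were left out.

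Symbols were the text before the first comma of the description, in upper case, with rows of 1 symbol summed. Percentile ranks were taken within each library over shared symbols, with ties at their mean rank, and a species was given its median. Tibia was compared with calvaria in mouse and in macaque by edgeR 4.0.16 (R 4.3.3), with TMM scaling, quasi-likelihood tests over all symbols with a read and Benjamini-Hochberg adjustment. DESeq2 1.42.0, other scalings, filters and lengths, a replicate block and leaving out each library were alternatives. The other steps ran in python 3.11.15, numpy 2.4.6 and pandas 2.3.3, and the fits were tested on simulated data.

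The members and gene lists were chosen with earlier results of these data known. Genes were named by rule: the 15 with the highest lowest rank, the 10 highest per species, the 5 widest gaps each way, the 5 most abundant unshared symbols, and list members. HOXA10, HOXC4, CHAD and SOST were named after their values were seen. Of the symbols these rules name, a few are not reported here.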

Additional observations from a re-analysis of the deposited data

Results flagged for a closer look

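Tibia and calvaria differed in opposite directions in mouse and macaque for 3 of the genes named above, and in each case every tibia library of a species lay on 1 side of its calvaria libraries after TMM scaling, although the unscaled macaque reads of the sites overlapped. The difference between the species was not tested. COL2A1, the collagen of cartilage, had a log2 difference of tibia over calvaria of 3.96 in mouse and -1.78 in macaque, on 9, 2 and 46 reads in the macaque tibias. ADIPOQ, or adiponectin, had 2.45 in mouse and -1.56 in macaque, where the tibias had 10, 6 and 18 reads. FABP4, a fatty acid carrier, had 1.48 in mouse and -1.11 in macaque on 17833 and 12957 and 6546, 5956 and 14757 tibia reads. Leaving out 1 library ended the mouse call of FABP4 (edgeR adjusted p = 0.437 without M5), the macaque call of ADIPOQ (edgeR adjusted p = 0.307 without G1) and the macaque call of COL2A1 (edgeR adjusted p = 0.239 without G3).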

How the results depend on the processing

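Few libraries and annotation that changes with species limited every result here. Mouse and rat rank agreement, 0.804 as median rho, was 0.799 without length, 0.735 and 0.726 with a read or 10 reads in every tibia library, 0.801 with named macaque loci and 0.810 with only symbols of 1 row, an alternative chosen after seeing the data. Mouse and macaque gave 0.533 and 0.534 under those read filters and 0.694 in calvaria, and rat and macaque 0.527, 0.526 and 0.668. The 141 top 5% symbols became 82 with 10 reads, and a limit of 1 or 10% gave 28 or 351. Gaps over 30 or 70 percentiles numbered 1221 and 64. Of the 30 lists, 21 had a median over 50 in every tibia library, and 13 did over symbols with a read in all. Without 1 tibia library in turn, rho ranged over 0.803 to 0.805, 0.670 to 0.683 and 0.642 to 0.653, the top symbols over 137 to 147 and the gaps over 333 to 363.

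The mouse count of 510 became 29 with edgeR's filter, 14 with a read in every library, 39 over shared symbols alone, 208 at a false discovery rate of 0.05 and 220 to 7470 without 1 library. The 3724 macaque calls became 2199 over shared symbols, 1978 at 0.05 and 2301 to 4998 without 1 library. Adding 5 reads cut the rat ratios past 2 in either direction from 1864 to 690. In mouse, 6 genes that were not called there turned direction between fits without M4 and without M8: ALAS2 -0.81 and 0.79, FAP 1.01 and -0.40, HEMGN -0.95 and 0.37, MKI67 -1.01 and 0.51, DKK3 1.66 and -2.12 and NOG 0.88 and -1.29. The cause was not tested, beyond fewer symbols, reads or libraries entering those fits.

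The study compared sites in pairs, but the sources used here do not say which libraries share an animal, so libraries with the same letter and adjoining numbers were assumed to be pairs. With that replicate block, mouse had 295 calls and macaque 4784, and 33 of the 45 mouse and 127 of the 128 macaque calls among list members were kept.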

Other observations

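Other macaque loci named through RefSeq also bear on limb bone. HOXA10, a posterior HOX factor of the limb, then had 917 and 808 reads in mouse tibia against 5 and 3 in calvaria and 1180, 1223 and 1907 in macaque tibia against 3, 4 and 13 in calvaria, and was at 0 in both rat libraries. HOXC4 had 144 and 109 reads in mouse tibia, 81 in rat and 170, 175 and 217 in macaque, and no macaque calvaria library had a read. CHAD, chondroadherin of cartilage, had 3061 and 1693 reads in mouse tibia against 176 and 24 in calvaria, 50 against 3 in rat and 20, 1 and 64 against 35, 39 and 61 in macaque. These loci were matched by NCBI gene number, and none of these values was tested.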
